A study of Mus musculus with 16 samples.

Results

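The regions described here are 1486 H3K4me3 peaks of late 2-cell mouse embryos that were called after a water injection and had no counterpart after injection of Hdac1 mutant mRNA. They were chosen from the control H3K4me3 list by width and position. Each was wider than 5000 bp and at most 10000 bp, lay on chromosomes 1 to 19, and shared not even 1 bp with any peak of the mutant H3K4me3 list. They made up 15.1% of the 9818 control peaks of that width and 1486 of 83220 control peaks of all widths on these chromosomes. Of the 83220 peaks, 51.3% had no mutant overlap. The absence from the mutant list is therefore the rule that chose the regions and not a finding. The other 8332 control peaks of the same width, which did overlap a mutant peak, are called retained peaks below and serve as the comparison.

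All embryos were collected at 36 h after fertilization and had been injected as zygotes, the control group with H2O and the mutant group with mRNA described only as Hdac1 mutant. The mutation, the mRNA dose, the mouse strain and the number of embryos per library are not given in the labels, and endogenous Hdac1 is not described as removed. Chromatin was digested with micrococcal nuclease without crosslinking and precipitated with an antibody to H3K4me3 or H3K27ac, which gave 2 libraries and 2 inputs for each modification and injection. Each pair of precipitated libraries is represented by a single peak list of chromosome, start and end, so no value below has a replicate error, the sequencing depth is unknown, and no test of mutant against control was possible. The range after a share is its 95% Wilson interval and reflects the number of peaks counted, nothing else. Neighbouring peaks are not independent, so these intervals are too narrow as a measure of biological error.

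H3K4me3, the trimethylation of lysine 4 of histone H3, marks promoters of active or poised genes in most cells. The mouse oocyte is known for an additional, noncanonical form that spreads over broad domains far from promoters. These domains are inherited by the zygote and are largely removed by demethylases of the Kdm5 family in the 2-cell embryo, while the genome becomes transcribed. H3K27ac is placed on active promoters and enhancers by the acetyltransferases Ep300 and Crebbp and removed by histone deacetylases, among them Hdac1 and Hdac2.

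Protein-coding start sites were seldom inside the control-only peaks, but 112 genes had one there, and 66 of these genes had no mutant H3K4me3 within 2 kb of either end. Of all 15790 genes with control H3K4me3 at an end, 8.14% had none in mutant embryos. The rule leaves no mutant H3K4me3 over the 112 starts, so nothing is read from that difference. The promoters in the 6 widest control-only peaks with a start of any of the 66 genes are printed to show how unlike these promoters were. Each is the RefSeq window of GRCm38.p6 from 250 bases before to 50 bases after a start, written 5′ to 3′ on the strand of the gene, with every CpG dinucleotide in capitals.
Slc22a6 (chr19:8617746-8618045, plus strand): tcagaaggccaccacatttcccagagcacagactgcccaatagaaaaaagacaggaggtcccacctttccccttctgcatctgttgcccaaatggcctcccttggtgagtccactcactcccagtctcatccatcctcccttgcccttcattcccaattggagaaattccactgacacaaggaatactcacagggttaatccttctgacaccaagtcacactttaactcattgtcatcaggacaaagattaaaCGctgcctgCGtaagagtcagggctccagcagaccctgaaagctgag
Mios (chr6:8208977-8209276, plus strand): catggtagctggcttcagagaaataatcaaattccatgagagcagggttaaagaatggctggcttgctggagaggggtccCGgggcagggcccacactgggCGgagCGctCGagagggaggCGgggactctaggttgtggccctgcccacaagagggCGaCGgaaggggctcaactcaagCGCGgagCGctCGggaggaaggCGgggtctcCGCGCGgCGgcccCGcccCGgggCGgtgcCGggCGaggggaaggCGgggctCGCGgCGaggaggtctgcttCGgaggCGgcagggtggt
Riok2 (chr17:17374082-17374381, plus strand): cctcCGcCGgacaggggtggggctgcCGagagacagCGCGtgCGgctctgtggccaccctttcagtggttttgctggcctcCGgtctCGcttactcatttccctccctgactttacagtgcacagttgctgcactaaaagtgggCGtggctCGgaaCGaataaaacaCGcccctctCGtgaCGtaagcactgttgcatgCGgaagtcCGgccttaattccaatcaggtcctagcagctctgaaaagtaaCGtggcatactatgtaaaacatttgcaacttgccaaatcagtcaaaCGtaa
Aoc1 (chr6:48904736-48905035, plus strand): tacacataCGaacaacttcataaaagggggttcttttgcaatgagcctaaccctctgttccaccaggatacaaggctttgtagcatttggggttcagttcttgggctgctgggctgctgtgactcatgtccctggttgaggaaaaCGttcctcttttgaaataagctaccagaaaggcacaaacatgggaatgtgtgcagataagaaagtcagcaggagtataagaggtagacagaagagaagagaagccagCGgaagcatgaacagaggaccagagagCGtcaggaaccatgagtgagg
Apela (chr8:65037287-65037586, minus strand): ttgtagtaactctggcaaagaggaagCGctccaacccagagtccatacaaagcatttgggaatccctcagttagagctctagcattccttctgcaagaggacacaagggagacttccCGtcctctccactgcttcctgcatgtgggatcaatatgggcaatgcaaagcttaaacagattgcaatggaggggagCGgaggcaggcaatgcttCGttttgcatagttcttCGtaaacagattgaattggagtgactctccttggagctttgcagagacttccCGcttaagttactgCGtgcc
Nup155 (chr15:8109063-8109362, plus strand): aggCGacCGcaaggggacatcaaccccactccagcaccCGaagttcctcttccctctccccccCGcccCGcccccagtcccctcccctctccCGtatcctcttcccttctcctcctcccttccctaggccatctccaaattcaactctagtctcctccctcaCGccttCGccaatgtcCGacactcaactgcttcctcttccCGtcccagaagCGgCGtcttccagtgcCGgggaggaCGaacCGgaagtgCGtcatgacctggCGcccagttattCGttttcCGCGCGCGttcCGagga

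Mios, Riok2 and Nup155 had 27, 18 and 23 CpG dinucleotides in these windows. Mios encodes a subunit of the GATOR2 complex that relays amino acid supply to mTORC1, Riok2 a kinase of small ribosomal subunit maturation, and Nup155 a scaffold protein of the nuclear pore. Slc22a6, Aoc1 and Apela had 2, 4 and 7 CpG dinucleotides. Slc22a6 encodes an organic anion transporter of the kidney, Aoc1 an amine oxidase that degrades histamine and polyamines, and Apela a secreted peptide ligand of the apelin receptor that is made in early embryos. The widest promoter peaks thus held both CpG-rich and CpG-poor windows.

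The control-only peaks were at the narrow end of their width range. Their median width was 6120.5 bp (quartiles 5472 and 7102 bp), against 6682.5 bp for the retained peaks, and together they covered 9.57 Mb. The share of control peaks without mutant overlap fell with width, from 20.4% (19.03 to 21.7) of those between 5 and 6 kb, 689 of 3385, to 6.57% (5.18 to 8.30) of those between 9 and 10 kb, 64 of 974. Just inside the lower limit lay control-only peaks of 5001, 5002 and 5006 bp, and just outside it peaks of 4998, 4998 and 4999 bp. The corresponding widths at the upper limit were 9969, 9973 and 9985 bp inside and 10012, 10026 and 10032 bp outside. The overlap limit also cut through a continuous range. Of the retained peaks, 13 shared at most 100 bp with a mutant peak and 220 shared less than 10% of their width, although the median retained peak had 83.8% of its width under mutant H3K4me3.

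**Figure D1:**
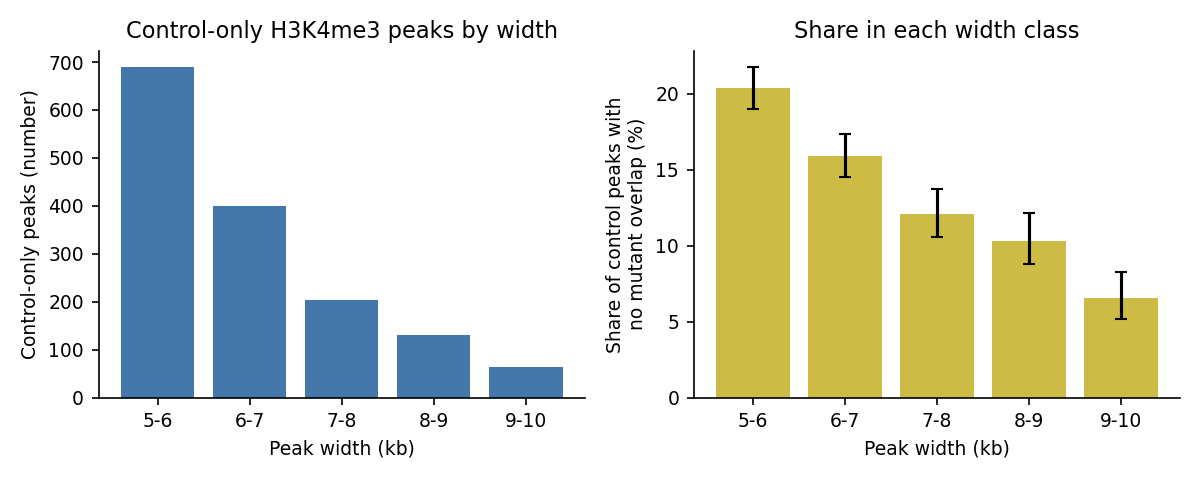
Number of control-only H3K4me3 peaks (left) and their share of all control H3K4me3 peaks (right, %) by peak width in classes of 1 kb; bars start at 0 and error bars are 95% Wilson intervals. The number falls from 689 to 64 and the share from 20.4% to 6.57% between the narrowest and the widest class.

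Most control-only peaks lay close to H3K4me3 of the mutant embryos without touching it. The nearest mutant peak was a median of 4226.5 bp away (quartiles 1880 and 8628 bp). It lay within 1 kb for 178 peaks, within 5 kb for 833 and within 10 kb for 1173, or 11.98%, 56.1% and 78.9%, while 21 peaks were 50 kb or more away. For the 42694 control peaks of all widths without mutant overlap, the corresponding shares were 9.16%, 40.1% and 60.2%. The nearest of all, on chromosome 16 within Fyttd1 (32884787 to 32891072), lay 9 bp from a mutant peak of 7455 bp. The farthest, a peak of 7722 bp on chromosome 12 (24378259 to 24385980), had its nearest mutant peak 107491 bp away. It was followed by peaks on chromosome 5 (59027987 to 59033093), 894750 bp from Pcdh7, and chromosome 15 (29248727 to 29254802), 776681 bp from Dnah5, with mutant peaks 105703 and 97958 bp away. The next nearest mutant peaks were 97729 bp from a control-only peak within Cpq on chromosome 15 and 96329 bp from one on chromosome 5 at 26472740 to 26478599.

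Farther out, the 2 H3K4me3 lists covered almost the same share of bases around the control-only peaks. In the 5 kb on each side of a control-only peak, 18.7% of bases were under control and 13.5% under mutant H3K4me3, and in the 50 kb on each side 26.8% and 26.0%. Around the retained peaks the order was the other way, with 26.0% and 42.7% in the 5 kb flanks. Part of that difference is set by the rule, because a mutant peak that overlaps a retained peak often extends past it. Of the mutant peaks nearest to a control-only peak, 849 of 1486, or 57.1% (54.6 to 59.6), overlapped some other control H3K4me3 peak, and 28.7% were themselves wider than 5 kb. Of all mutant H3K4me3 peaks, 45.9% overlapped a control peak and 20.5% were wider than 5 kb. The nearest other control peak was a median of 2800.5 bp away and lacked a mutant overlap in 53.8% (51.3 to 56.4) of cases, against 51.3% of all control peaks. Some control-only peaks directly followed one another. Counting peaks that followed each other in the control list with no other peak between them, 1381 stood alone, 96 were in pairs and 9 in runs of 3.

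**Figure D2:**
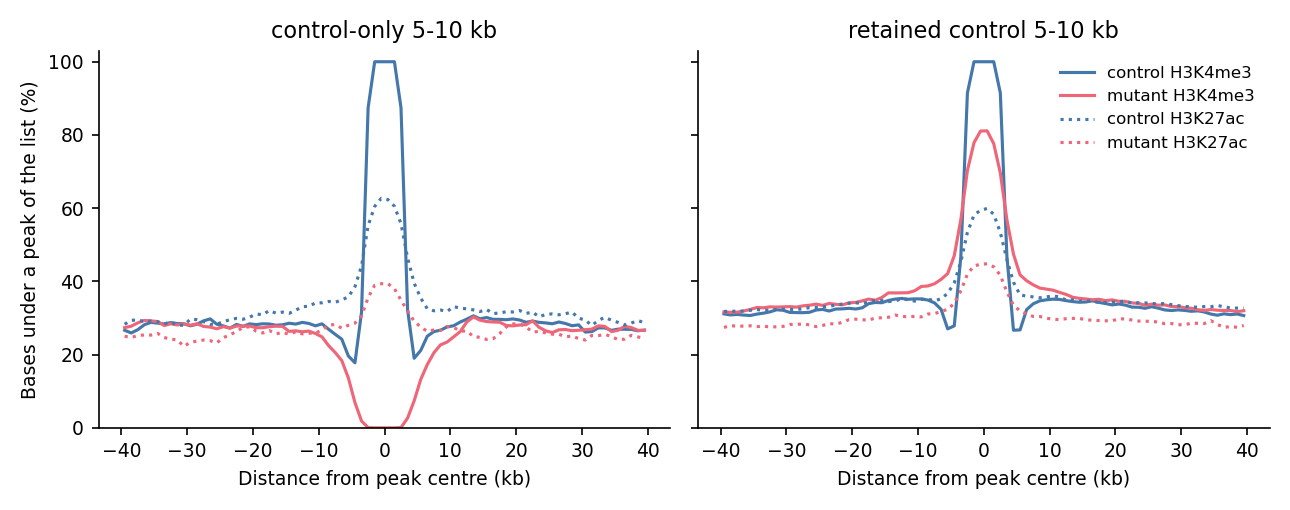
Average coverage (%) by the peaks of each list in bins of 1 kb against distance from the peak centre (kb), for the 1486 control-only peaks (left) and the 8332 retained peaks (right); solid lines are H3K4me3, dotted lines H3K27ac, blue control and red mutant. At control-only peaks the mutant H3K4me3 line is at 0 by the rule and returns to the control level within the flanks, and control H3K27ac peaks at the centre at 62.7%, above mutant H3K27ac at 39.4%.

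H3K27ac was not used to choose the regions. Of the control-only peaks, 1111, or 74.8% (72.5 to 76.9), overlapped a control H3K27ac peak and 1025, or 69.0% (66.6 to 71.3), a mutant H3K27ac peak. Both shares were well above those of control H3K4me3 peaks of all widths, which were 40.8% and 41%. They have to be read against peaks of the same width, and for the retained peaks they were 75.4% (74.5 to 76.3) with the control list and 73.9% (73.0 to 74.8) with the mutant list. In control embryos the H3K27ac shares of control-only and retained peaks over all positions differed by less than the counting error. In mutant embryos the share was 4.93 percentage points lower in the control-only peaks, with intervals that did not overlap, and lower on 15 of 19 chromosomes. Weighted to the widths of the control-only peaks, the retained peaks had 73.0% in control and 71.9% in mutant embryos. At equal widths the mutant difference shrank to -2.91 percentage points, and the control difference was 1.73 points in the other direction.

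The covered sequence gave the same order. H3K27ac peaks covered 59.9% of the summed width of the control-only peaks in control embryos and 37.8% in mutant embryos. For retained peaks the values were 57.3% and 43.7%, and for all control H3K4me3 peaks 53.0% and 39.9%. Control H3K27ac covered at least 50% of the width of 62.5% (60.0 to 64.9) of the control-only and 59.3% (58.3 to 60.4) of the retained peaks. For mutant H3K27ac the order was opposite, with 37.8% (35.3 to 40.2) and 44.6% (43.5 to 45.7). Of all control H3K4me3 peaks, 33.3% and 27.2% reached that cover in control and mutant embryos. Complete coverage was seen at 431 control-only peaks (29.0%) with the control list and at 93 (6.26%) with the mutant list. It also fell in the comparison sets, from 23.7% to 7.86% of retained peaks and from 18.5% to 10.5% of all control H3K4me3 peaks. Of the 833 control-only peaks with H3K27ac in both lists, the mutant list covered fewer bases at 625, more at 157 and the same number at 51. Fewer bases were covered at 75.03% of these peaks and at 65.1% of the corresponding retained peaks. At least 2 separate H3K27ac peaks lay inside 177 control-only peaks (11.9%) in the control list and inside 393 (26.4%) in the mutant list. The same was seen at 14.5% and 29.1% of retained peaks and at 4.76% and 9.5% of all control H3K4me3 peaks. The whole mutant H3K27ac list was also split into more peaks, with 114737 autosomal peaks over 237.2 Mb against 73320 over 241.8 Mb in the control list. The whole lists thus differed in peak number but little in covered sequence. How far this enters the values above was not tested.

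The opposite class of peaks, those of the mutant list without a control counterpart, carried less H3K27ac. The 1502 mutant-only H3K4me3 peaks of the same width overlapped control H3K27ac in 36.5% (34.1 to 39.0) and mutant H3K27ac in 59.4% (56.9 to 61.8) of cases. H3K27ac covered 13.1% of their summed width in the control list and 25.3% in the mutant list. The cover was thus higher in control embryos for the control-only set and in mutant embryos for the mutant-only set. Control cover was also higher where both conditions had H3K4me3. It was 57.3% against 43.7% for retained peaks. For mutant peaks of 5 to 10 kb that overlapped a control peak, it was 44.7% against 39.25%. Mutant H3K27ac nevertheless covered more of the control-only set, at 37.8%, than of the mutant-only set. No test of this difference was possible with 1 list per group.

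**Figure D3:**
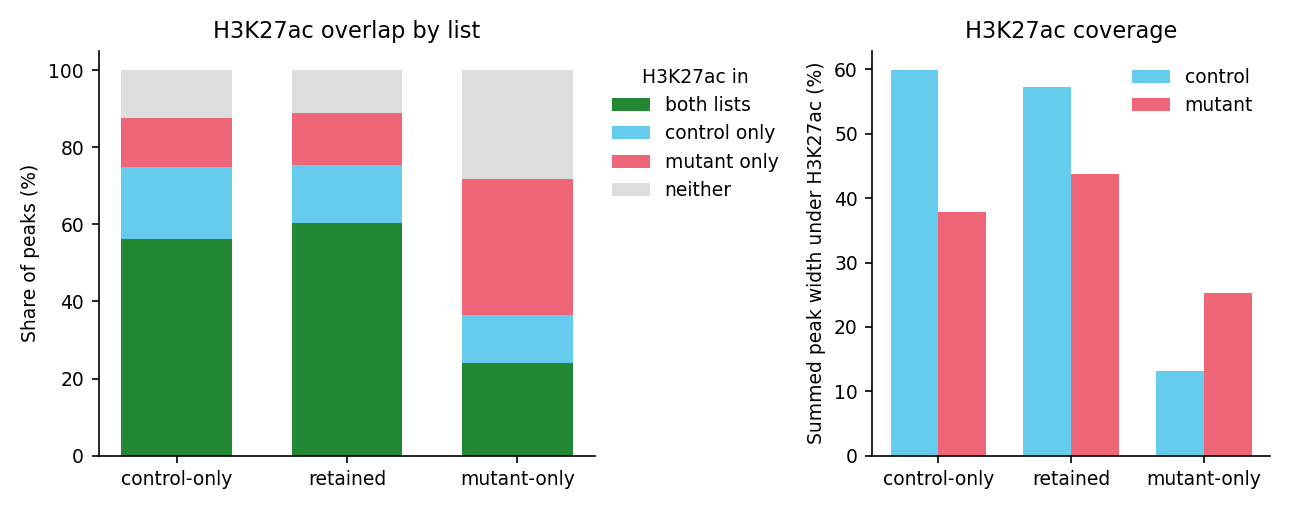
Share of H3K4me3 peaks of 5 to 10 kb by H3K27ac overlap (left, %) and share of their summed width under H3K27ac (right, %), for 1486 control-only, 8332 retained and 1502 mutant-only peaks; bars start at 0. Control H3K27ac covers 59.9% of the control-only and 57.3% of the retained width and mutant H3K27ac 37.8% and 43.7%, whereas mutant-only peaks have 13.1% and 25.3%.

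The overlaps with both H3K27ac lists divided the control-only peaks into 4 states. H3K27ac lay in both lists at 833 peaks, in control only at 278, in mutant only at 192 and in neither at 183. Of the control-only peaks with control H3K27ac, 74.98% (72.3 to 77.4) also had it in mutant embryos, against 80.1% (79.1 to 81.03) of retained peaks. Put the other way, 278 of 1111 lost the overlap, while 35.1% of all control H3K4me3 peaks with control H3K27ac, most of them narrower, did so. Of the peaks without control H3K27ac, 51.2% (46.2 to 56.2) had it in mutant embryos, against 55.0% (52.9 to 57.2) of retained peaks and 24.5% of all control H3K4me3 peaks without it. Peaks with H3K27ac in both lists had their midpoint between protein-coding genes in 41.7% (38.4 to 45.03) of cases, those with control H3K27ac alone in 48.2% (42.4 to 54.1), those with mutant H3K27ac alone in 65.1% (58.1 to 71.5) and those with neither in 60.7% (53.4 to 67.4).

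Some control-only peaks had no mutant H3K27ac at all. The control-only peak with the most control H3K27ac and none in mutant embryos covered 9508 bp of chromosome 12 (54909787 to 54919294) within Baz1a, which encodes a subunit of the ACF chromatin remodeller. All of its 9508 bp were under control H3K27ac. The next such peaks were 9365 bp within Akap12, a scaffold protein for protein kinase A, and 8813 bp on chromosome 16, 7766 bp from Scaf4, both entirely under control H3K27ac. A peak of 9134 bp within Rab43 had 8434 bp under control H3K27ac, and a peak of 8131 bp over Psme4, a proteasome activator, and Erlec1, an endoplasmic reticulum lectin, was entirely covered. The opposite pattern also occurred. On chromosome 1 (185632115 to 185640405), 163352 bp from Slc30a10, a control-only H3K4me3 peak of 8291 bp had no control H3K27ac and 6500 bp of mutant H3K27ac. A peak of 6394 bp on chromosome 5, 50738 bp from the homeobox gene Barhl2, was covered over its whole length by mutant H3K27ac and by none in control embryos. Mutant H3K27ac alone also lay over 6470 bp of a peak 17244 bp from Grp, 6331 bp of a peak 7598 bp from Tle4 and 6325 bp of a peak 3763 bp from Ccdc113.

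Mutant H3K27ac was lower at control-only peaks far from mutant H3K4me3. The mean share of the width under mutant H3K27ac was 39.3% for the 178 peaks with a mutant H3K4me3 peak closer than 1 kb, 39.6% from 1 to 5 kb, 38.1% from 5 to 10 kb, 34.2% from 10 to 20 kb and 27.2% for the 107 peaks 20 kb or more away. Control H3K27ac showed no such order, with 62.7%, 58.4%, 59.8%, 57.2% and 61.0%. The shares of peaks with any mutant H3K27ac were nearly flat, between 67.0% and 70.6%.

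The control-only peaks were mostly away from promoters. A start site of a protein-coding gene lay inside 109 of 1446, or 7.54% (6.29 to 9.01), whereas it lay inside 31.2% (30.2 to 32.2) of retained peaks and 12.9% of control H3K4me3 peaks of all widths. The share was lower than that of retained peaks on each of the 18 chromosomes with start sites. It was also lower in each width class of 1 kb, where it ranged from 5.22% to 9.79% for control-only and from 29.7% to 34.9% for retained peaks. Weighting to equal widths gave 30.6% for retained peaks. The median distance to the nearest start was 26149 bp for control-only and 9929 bp for retained peaks. Chromosome 18 was left out of these shares and distances. The table held a start for 16457 of 20665 protein-coding genes and whole stretches had none, so the shares are lower bounds and the distances upper bounds for every set of peaks. Mutant-only peaks of the same width held a start in 4.53% (3.57 to 5.73) of cases and were a median of 43611 bp from one.

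**Figure D4:**
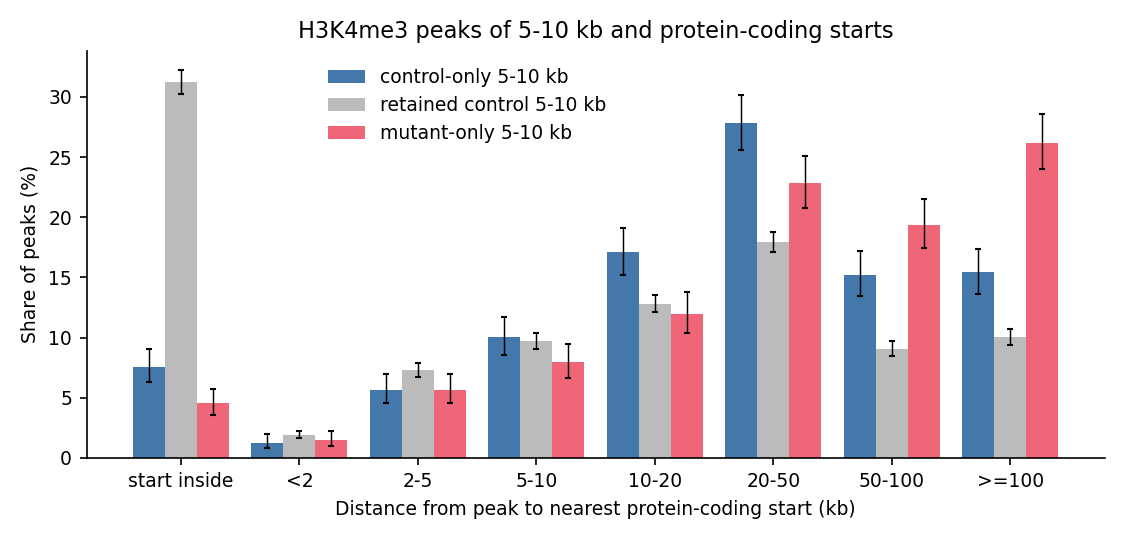
Share of H3K4me3 peaks of 5 to 10 kb (%) by distance to the nearest protein-coding start (kb) for control-only (blue), retained (grey) and mutant-only (red) peaks, with 95% Wilson intervals. A start lies inside 7.54% of control-only, 31.2% of retained and 4.53% of mutant-only peaks, and the commonest distance of control-only peaks is 20 to 50 kb, at 27.8%; distances are upper bounds because starts are missing from the table.

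Positions inside genes and away from their ends were commoner than among retained peaks. The midpoint of 687 control-only peaks, or 46.2% (43.7 to 48.8), lay inside a protein-coding gene more than 2 kb from its ends, against 33.0% (32.02 to 34.03) of retained and 37.9% of all control H3K4me3 peaks. Only 10.4% (8.91 to 12.02) had the midpoint within 2 kb of a gene end, against 29.8% (28.8 to 30.8) of retained and 16.2% of all control H3K4me3 peaks. The remaining 43.4% (40.9 to 45.9) had it in neither position, against 37.2% of retained and 45.9% of all control H3K4me3 peaks. The share with the midpoint outside every protein-coding gene, with no allowance for the ends, was 48.3% (45.7 to 50.8) and close to the 49.7% of retained and 51.7% of all control H3K4me3 peaks. For peaks inside gene bodies the median length of the host gene, taken over peaks, was 74956 bp for control-only, 53362 bp for retained and 86951 bp for all control H3K4me3 peaks. Exons and introns were not told apart, since the gene table gives only the outer ends. Control-only peaks inside gene bodies had the most control H3K27ac, at 81.8% (78.7 to 84.5), and 72.5% (69.03 to 75.7) had it in mutant embryos. Near gene ends the values were 76.6% (69.3 to 82.6) and 64.3% (56.5 to 71.4), and in the remaining positions 66.8% (63.1 to 70.3) and 66.4% (62.6 to 69.9). The retained peaks had 80.2% and 76.1% inside gene bodies, 72.1% and 70.0% near gene ends, and 73.8% (72.2 to 75.3) and 75.1% (73.6 to 76.6) in the remaining positions. Control H3K27ac was thus commonest inside gene bodies in both sets. Away from genes, a smaller share of control-only than of retained peaks had H3K27ac in each condition. With the retained peaks weighted to equal widths, the difference there went from -6.96 to -4.41 percentage points in control and from -8.75 to -6.74 in mutant embryos.

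Most genes with a control-only peak held a single one. Of 836 protein-coding genes overlapped, 65 held 2 or more and 3 held 3. The genes with 3 were picked for peaks that lack mutant H3K4me3 by the rule. Lower mutant H3K4me3 cover in them is therefore set in part by that choice. In Btaf1, which encodes a regulator of the TATA-binding protein, H3K4me3 covered 47.2% of the gene in control and 13.2% in mutant embryos. The 87979 bp gene (chromosome 19, 36926079 to 37014057) held 8 control and 4 mutant H3K4me3 peaks. In Pkd2l1, a cation channel gene, the cover was 59.2% and 48.3%. In Sugct, a gene of 837324 bp that encodes a mitochondrial CoA transferase, the 3 control-only peaks were among 20 control peaks and the cover was 4.60% and 2.64%.

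The widest control-only peaks were at or inside genes in several cases. The widest, 9985 bp on chromosome 10 (93521667 to 93531651), lay over Amdhd1, an enzyme of histidine breakdown, and had 10.9% of its width under control and 15.4% under mutant H3K27ac. The peak within Parn, a poly(A)-specific ribonuclease (chromosome 16, 13609977 to 13619949), had 91.6% and 51.3%, and the peak within the splicing factor gene Sf3b1 (chromosome 1, 55008654 to 55018617) 97.3% and 42.8%. The peak within Sae1, a subunit of the SUMO-activating enzyme, went from 100% to 51.03%, and that within Srl from 100% to 93.8%. The tenth, of 9830 bp on chromosome 13 (35898887 to 35908716), held the start of Rpp40, a protein subunit of ribonuclease P, and had 81.6% of its width under control H3K27ac and none under mutant H3K27ac. The others lay 2002 bp from Zfp60, 10478 bp from Ets2, 7079 bp from Car7 and over 3300002I08Rik. Near Car7 the cover went from 61.3% in control to 0 bp in mutant embryos. The peak near Ets2 had no H3K27ac in either list, and at the peak near Zfp60 the cover was 22.2% in control and 57.7% in mutant embryos.

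At the promoters printed above, H3K27ac followed several courses. At Riok2 (chromosome 17, gene 17374332 to 17394899) the control H3K4me3 peak measured 8926 bp and the nearest mutant H3K4me3 was 32797 bp from it. Control H3K27ac covered 81.5% of the peak and reached the start site, while mutant H3K27ac was 10553 bp from the start. At Mios (chromosome 6, gene 8209111 to 8240573) the peak of 9582 bp was wholly under 1 control H3K27ac peak of 12197 bp. In mutant embryos 57.1% was covered by 4 separate peaks, and the start site was under H3K27ac. At Nup155 (chromosome 15, gene 8109263 to 8159859) control H3K27ac covered the whole peak with 1 domain of 33495 bp, and mutant H3K27ac covered 80.9%. There, 6 mutant H3K4me3 peaks lay within 20 kb, the nearest 4121 bp from the start. At Apela (chromosome 8, gene 65028417 to 65037336) control H3K27ac covered 53.3% of the peak and mutant H3K27ac 0 bp. At Slc22a6 (chromosome 19, gene 8617996 to 8628299) the cover was 7.81% and 0 bp, and at Aoc1 (chromosome 6, gene 48895255 to 48909188) 0 bp and 10.9%. The start printed for Aoc1 is an inner start of that gene.

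**Figure D5:**
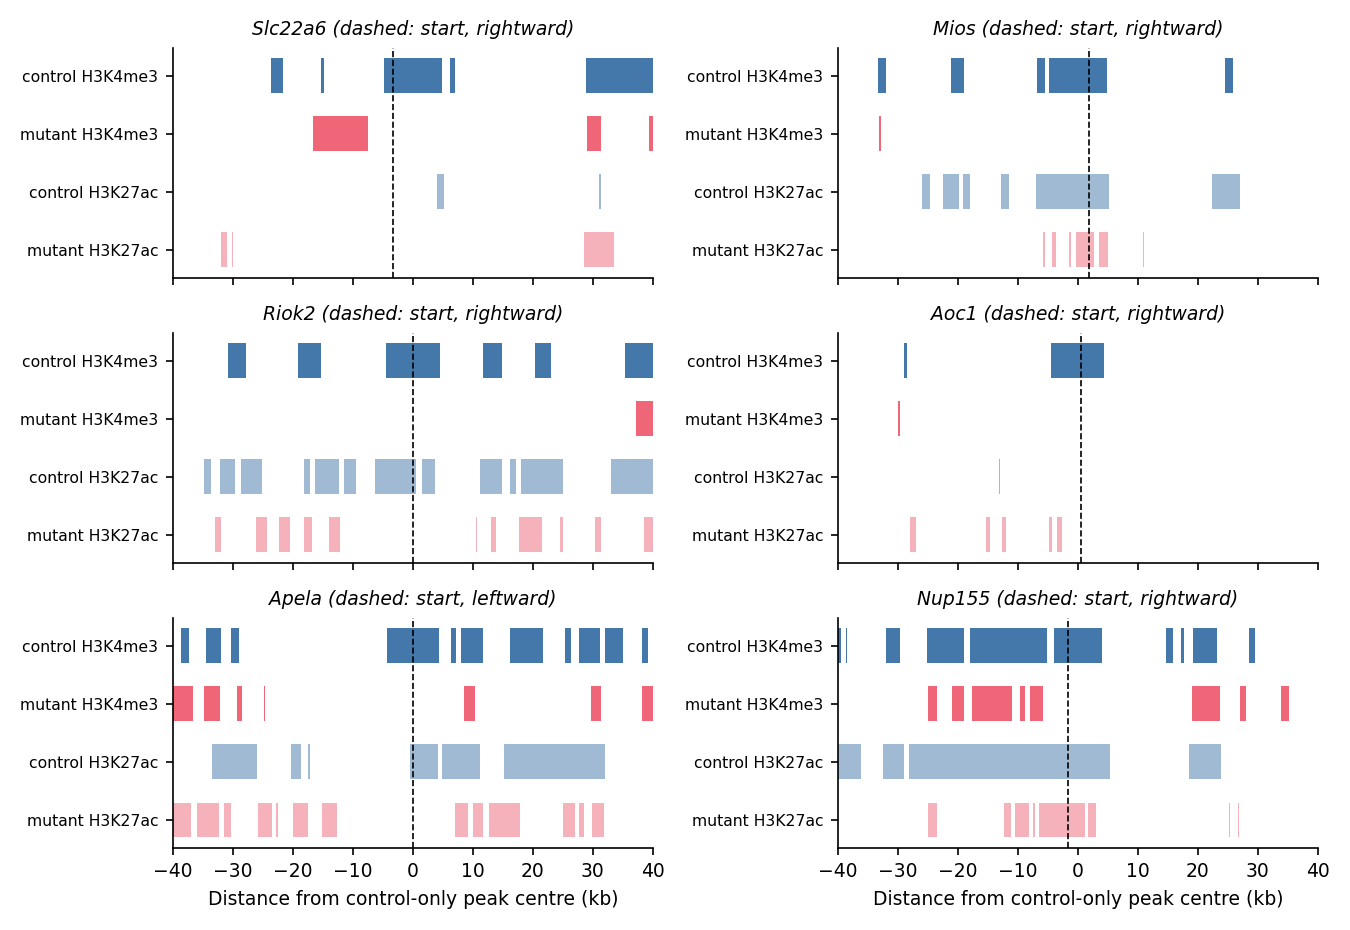
Peaks of the 4 lists around the 6 control-only H3K4me3 peaks whose promoters are printed, drawn to scale by distance from the peak centre (kb), with the start site as a dashed line; blue is control, red is mutant, pale colours are H3K27ac. By the rule, no mutant H3K4me3 lies over any of the 6 starts. The nearest is 4121 bp away at Nup155, and mutant H3K27ac lies over the starts of Mios and Nup155.

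The other named promoter peaks without mutant H3K4me3 at the gene ends were spread over genes of varied use. Phb, a mitochondrial prohibitin, had a peak of 7736 bp with 36.2% of its width under control and 33.2% under mutant H3K27ac. Naxe, a repair enzyme of damaged NADH and NADPH, had one of 7529 bp with 90.5% and 93.2%, and a mutant H3K4me3 peak began 872 bp from it. At Tgif1, a homeodomain repressor, the peak of 7463 bp had no H3K27ac in either list. Mutant H3K27ac covered more than control H3K27ac at Tmem213 (46.9% against 20.3%), Plekhb2 (56.3% against 2.66%) and Adgrg5 (70.2% against 0 bp). Gm35549 went from 100% to 0 bp, Drc1, a dynein regulator of cilia, from 88.3% to 70.9%, and 2510002D24Rik from 100% to 68.1%. Of all 65 control-only peaks that held a start of such a gene, 44 had control and 42 mutant H3K27ac. Of the 109 control-only peaks with any protein-coding start, 71.6% had control and 61.5% mutant H3K27ac. The shares were 74.8% and 69.0% for all control-only peaks and 75.4% and 73.9% for retained peaks. For control H3K4me3 peaks of all widths they were 40.8% and 41%.

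The promoters inside control-only peaks had about the CpG content of all promoters, and those inside retained peaks had more. For 1 start per gene, the median ratio of observed to expected CpG was 0.58 for the 112 genes in control-only peaks, 0.78 for 2851 genes in retained peaks and 0.60 for 16457 genes with a start in the table. A ratio of at least 0.6 was reached by 49.1% (40.03 to 58.2), 74.6% (72.9 to 76.1) and 49.7% in the same order. Short motifs were searched on both strands of the 300 bp windows. The GC box GGGCGG was found in 45.5% (36.6 to 54.8) of promoters in control-only peaks, in 64.5% (62.7 to 66.2) in retained peaks and in 47.3% of all. CCAAT was found in 42.0% (33.2 to 51.2), 39.4% and 39.0%, TATAAA in 5 of 112, 7.37% and 13.5%, and the nuclear receptor core AAGGTCA in 4 of 112, 2.60% and 4.02%. GGGCGG contains a CpG and so is tied to the CpG content. Within the control-only set, CCAAT lay in 36 of the 66 promoters of genes without mutant H3K4me3 at either end and in 11 of the other 46, a division made after the values were seen.

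Most genes with a control-only peak at an end had mutant H3K4me3 at either end, but less often than all marked genes. A control-only peak lay within 2 kb of an end of 355 of 20665 protein-coding genes, or 1.72%. Of these 355 genes, 243 had a mutant H3K4me3 peak at either end and 112 had none. For 96 genes the control mark at the ends came from such peaks alone, and 70 of the 96 had no mutant mark. Of all 15790 genes marked in control embryos, 8.14% had no mark in mutant embryos. The 112 and the 70 genes were reached through peaks chosen by the same absence, and nothing is read from either difference. Of these 70 genes, 44 had control and 44 mutant H3K27ac at an end, 29 of them both. Of the 15790 genes with control H3K4me3 at an end, 68.6% had control H3K27ac, 70.7% mutant H3K27ac and 54.9% both.

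Lists of genes with roles in early embryos and chromatin were counted by control-only peaks within 2 kb of the gene, which was true of 4.36% of all protein-coding genes. Among genes of the 2-cell stage, 3 of 31 had such a peak. Zscan4d, of the Zscan4 family of the 2-cell transcription burst, had one of 6058 bp with 88.1% of its width under control and 46.5% under mutant H3K27ac, and mutant H3K4me3 elsewhere at the gene ends. Tdpoz1 had a peak of 6782 bp with 10.7% under control H3K27ac and 0 bp under mutant H3K27ac, and no mutant H3K4me3 at its ends. Zscan4d and Tdpoz1 have near-identical paralogs to which their reads could also map, and both peaks are uncertain for that reason. The third was Zfp809, a zinc finger silencer of retroviral elements, with 58.1% under control H3K27ac and 0 bp under mutant H3K27ac. All 43 matched ribosome biogenesis genes were marked by H3K4me3 in both conditions, and the only one with a control-only peak was Utp4.

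Of 42 matched genes of histone deacetylases and their corepressors, 4 had a control-only peak. These were the corepressor genes Mier1, Zmym2, Mta3 and Sap130. At Mta3, a subunit of the NuRD complex, the peak of 8593 bp lay inside the gene (chromosome 17, 83792318 to 83800910), 13007 bp from mutant H3K4me3, and had 55.6% of its width under control and 0 bp under mutant H3K27ac. At Mier1 the values were 79.8% and 0 bp, and at Zmym2 84.6% and 19.2%. Sap130, of the Sin3 complex, had 2 control-only peaks, of 6743 and 5806 bp. Of the 22 matched genes of H3K4 methylation and demethylation, 3 had one: Smyd3 with 100% under control and 0 bp under mutant H3K27ac, Ncoa6 with 98.5% and 70.8%, and Ash2l, a core subunit of the methyltransferase complexes, with 100% in both. Of 28 acetyltransferase and acetyl-lysine reader genes, 4 had one, namely Ncoa1, Ncoa3, Tada2a and Brpf3. At Ncoa1 the cover went from 100% to 0 bp, and at Brpf3 it was 100% in both.

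Genes of pluripotency and of the trophectoderm, the first outer lineage of the embryo, included 4 of 34 with a control-only peak. In Esrrb, an orphan nuclear receptor, the peak of 7341 bp lay inside the gene (chromosome 12, 86441135 to 86448475), 16197 bp from mutant H3K4me3, and had 80.5% of its width under control and 0 bp under mutant H3K27ac. The ends of Esrrb had no H3K4me3 in either condition. In Yap1, the coactivator of the Hippo pathway, a peak of 5201 bp had 85.7% and 0 bp. In Tead4, its DNA-binding partner, a peak of 5224 bp had 0 bp and 12.1%, and in Sall4, a zinc finger factor, a peak of 5654 bp was wholly under H3K27ac in both lists. Control-only peaks were within 2 kb of 2 of 28 housekeeping genes, Vcp and Tfrc, and of 1 of 34 oocyte genes, Zp3, which encodes a protein of the zona pellucida. The Zp3 peak lay just beyond the gene, which had mutant H3K4me3 at an end, and held the start of another protein-coding gene. Of this peak, 57.9% was under control and 63.4% under mutant H3K27ac. No control-only peak was near any of the 35 genes of differentiated tissues or the 16 genes of cumulus and granulosa cells, the cells around the oocyte. H3K4me3 lay at the ends of 11 control and 12 mutant of these 16 genes, so these peak lists cannot show whether such cells were present. Of the 31 genes of the 2-cell stage, 25 were marked in each list.

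The control-only peaks were found on every autosome examined. Their share of the control peaks of 5 to 10 kb ranged from 11.8% (9.56 to 14.6) on chromosome 7, 76 of 642, to 19.6% (16.01 to 23.7) on chromosome 13, 80 of 409. Per length they were densest on chromosome 11, at 1.02 per Mb, and sparsest on chromosome 3, at 0.41 per Mb. These chromosomes held 889 and 438 control peaks of that width. The control-only share of them was 13.9% and 14.8%, against 15.1% over all autosomes. Of the windows of 1 Mb, 1555 held none, 545 held 1 and 227 held 2. The fullest window, on chromosome 8 from 95000001 to 96000000, held 8 of them among 17 control peaks of that width. H3K4me3 covered 37.0% of it in control and 29.6% in mutant embryos, while H3K27ac covered 32.9% and 37.2%, and 4 of the 8 had control and 6 mutant H3K27ac. The 8 peaks filled 54276 bp and had no mutant H3K4me3 by the rule. The next, on chromosome 10 from 4000001 to 5000000 with Mthfd1l, Akap12 and Esr1, held 6. There H3K27ac covered 29.3% in control and 13.1% in mutant embryos, and H3K4me3 15.8% and 11.9%. The 6 control-only peaks filled 41864 bp of that window. Nothing is read from the H3K4me3 difference in either window, because the choice of windows sets it in part. In 9 windows there were 5.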

How the data were processed

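The study measured H3K4me3 and H3K27ac in late 2-cell mouse embryos by native chromatin precipitation, in 16 libraries of 8 groups. The deposited files are 4 peak lists, 1 for each pair of precipitated libraries. Their values are positions in bp and carry no score. Per the submitters' processing notes, CASAVA, Trimmomatic, Bowtie2, SAMtools, Picard, MACS2 and deepTools were used with the mm10 (GRCm38) build. Their settings, and whether replicates were pooled before calling, are not given in the sources used here. The smallest gap between H3K4me3 peaks was 684 bp (control) and 734 bp (mutant); the limits used to join peaks are not given in the sources used here.

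BED positions were converted to 1-based coordinates. Peaks were compared by overlap of at least 1 bp with code run in python 3.11.15, checked against bedtools 2.31.1, which gave the same number of 1486 regions, and tested on simulated intervals. Genes and promoter sequences came from RefSeq tables of GRCm38.p6. H3K27ac shares, positions and promoters were not used by the rule. The members and gene lists were chosen with earlier results of these lists known. Named regions were the 10 widest, the nearest and farthest 5 by mutant H3K4me3, the 15 widest with a start of a gene unmarked in mutant embryos, the 5 strongest with H3K27ac in a single condition, the 3 fullest windows of 1 Mb, the 3 peaks on each side of each width limit and all listed genes. Alternatives covered overlap, width, merging and gene windows. The mouse X chromosome was left out by the rule, and promoters of chromosome 18 were not used here. The third of the fullest windows is not reported here.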

Additional observations from a re-analysis of the deposited data

How the results depend on the processing

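No paired analysis was possible because the files hold 1 list per pair of libraries. For the same reason no replicate could be left out, and depth is unknown. A stricter score threshold could not be applied and was replaced by the wider 50% of a list. Under the alternatives 25 values moved by less than their counting error or, for counts, by less than 1.5 times, and 13 moved by more. The number of regions was 1486 and became 2786 with width limits of 4 and 12 kb; the X chromosome, where 164 of 382 control peaks of the class had no mutant overlap, brought it to 1650. The share with control H3K27ac, 74.8%, became 62.5% where 50% of the width had to be covered, 70.3% with the wider 50% of the H3K27ac list and 72.4% after merging peaks less than 1 kb apart. The share with mutant H3K27ac, 69.0%, became 37.8%, 62.3% with the wider 50%, and 72.95% when a peak within 1 kb counted. The share with a protein-coding start, 7.54%, became 20.5% when either gene end within 2 kb counted, an alternative chosen after the data were seen. The share between genes, 48.3%, became 32.2% beyond 10 kb of any gene. The median distance to mutant H3K4me3, 4226.5 bp, became 4769 bp without mutant peaks of 500 bp or less, 4987 bp for regions without a mutant peak within 1 kb and 4632 bp after merging. The count of 70 genes became 37 with windows of 5 kb. The deficit of start sites against retained peaks lay between -22.8 and -24.9 percentage points under 4 settings, and that of mutant H3K27ac between -4.53 and -4.93. With retained peaks weighted to equal widths, chosen after the data were seen, these were -23.1 and -2.91. The difference in control H3K27ac changed sign, from -0.66 to 0.58 after merging and to 1.73 at equal widths.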

Other observations

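Gene families were counted by control-only peaks within 2 kb of a gene, against 4.36% of all protein-coding genes. Of 391 zinc finger genes named Zfp, 12 had such a peak, or 3.07%, among them Zfp410, Zfp618, Zfp777 and the repressor gene Zfp809. Of 375 solute carrier genes 23 had one, or 6.13%, including the organic ion transporter genes Slc22a2 and Slc22a6. Of 1101 olfactory receptor genes 1 had such a peak, Olfr315, and of 352 vomeronasal receptor genes 1, Vmn1r86. Among 50 proteasome genes Psme4 was the only one, and among 15 lysine demethylase genes Kdm4a and Kdm4c had a control-only peak, and the autosomal Kdm5a and Kdm5b had none.

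Noncoding genes were counted by direct overlap. A control-only peak overlapped 191 of 12408 long noncoding RNA genes, or 1.54%, and 836 of 20665 protein-coding genes, or 4.05%. Counting start sites of every gene type raised the share of control-only peaks with a start from 7.54% to 10.3% (8.84 to 11.98) and that of retained peaks from 31.2% to 36.3%. In mutant-only peaks of the same width the share rose from 4.53% to 10.5% (8.97 to 12.1). Control-only and mutant-only peaks thus had nearly the same share of starts of any kind, but protein-coding starts made up 109 of 149 in the first and 65 of 150 in the second.

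Control-only peaks over 10 kb, 111 in number, and up to 5 kb, 41097 in number, lay on either side of those of 5 to 10 kb. The share with control H3K27ac was 91.0% (84.2 to 95.03) in the wide and 25.3% (24.9 to 25.7) in the narrow class, around 74.8% in the class between. A protein-coding start lay inside 20.2% (13.6 to 28.9) of the wide and 2.04% (1.91 to 2.19) of the narrow peaks. Summed width under H3K27ac went from 71.4% in control to 41.6% in mutant embryos in the wide class and from 31.8% to 22.7% in the narrow class.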
